A study of Mus musculus with 9 samples.

Results

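The genes described here encode 10 proteins of the cardiac Z-disc and intercalated disc that are known to respond to stretch: Myot, Synpo2l, Xirp1, Xirp2, Ankrd1, Ankrd2, Csrp3, Flnc, Nrap and Fhl1. They were taken by symbol from the tables of the whole series, which hold 15779 genes, and all 10 have a row there. The set was chosen by measured values in part. Myot, Synpo2l, Xirp2 and Ankrd1 (4 of the 10) were included because they rise strongly in mutant hearts and return little after treatment. The values of all 10 in these groups are therefore given as a description. Calls of these genes in the fits below, kept or lost, are printed as descriptions too and are not used as evidence that the genes changed.

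The data are 9 sequencing libraries of polyA RNA, made from adult mouse heart of strain C57BL/6J, in 3 groups of 3. Wild-type mice given saline were the controls. The saline mutants were homozygous for the premature stop allele R946X of Mybpc3, which encodes cardiac myosin-binding protein C, and the treated mutants carried the same alleles and received a high dose of exABE8e. The labels give neither the dose, the age beyond adult, the sex, nor a definition of exABE8e; the series describes base editors delivered by AAV9 for expression in cardiomyocytes. All 3 groups are bulk heart tissue of 1 strain, and nothing in the labels ties a library to a named animal, so the spread between libraries may be partly technical. In bulk tissue, fewer cells of a type and less RNA per cell cannot be told apart.

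The Z-disc anchors the actin filaments of neighbouring sarcomeres, and the intercalated disc couples the last sarcomere of one cardiomyocyte to the next. Both carry the force of every contraction, and both hold proteins that move, change partners or change in amount when the load rises. Some of these proteins, among them the muscle ankyrin repeat proteins and the LIM-domain proteins, also enter the nucleus, which is why the group is often read as a stretch response of the myocyte.

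Promoters of 3 of the genes, Ankrd1, Xirp2 and Synpo2l, are shown because each was among those chosen on its rise and has a window with a motif match. RefSeq promoter windows on GRCm38.p6, from 250 bases before to 50 after a transcription start, matched 8 of the 10 genes (not Myot and Xirp1), with 12 windows. For these 3 genes the 250 bases before 1 start are given 5′ to 3′ on the gene's strand, with the matches to 3 muscle motifs in capitals. The first is the MCAT element, bound by TEAD factors (GGAATG, or CATTCC on the other strand). The others are the CArG box, bound by SRF, and the MEF2 site. The last pair were searched on both strands, the CArG box by its usual consensus and the MEF2 site by a stricter form. That form fixed the first and last base, where the usual consensus allows either pyrimidine first and either purine last.
Ankrd1, chr19:36119845-36120094, minus strand: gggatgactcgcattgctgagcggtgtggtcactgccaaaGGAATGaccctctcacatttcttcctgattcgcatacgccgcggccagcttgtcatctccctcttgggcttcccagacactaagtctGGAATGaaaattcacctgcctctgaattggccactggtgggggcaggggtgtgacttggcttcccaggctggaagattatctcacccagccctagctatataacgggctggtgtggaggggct
Xirp2, chr2:67445752-67446001, plus strand: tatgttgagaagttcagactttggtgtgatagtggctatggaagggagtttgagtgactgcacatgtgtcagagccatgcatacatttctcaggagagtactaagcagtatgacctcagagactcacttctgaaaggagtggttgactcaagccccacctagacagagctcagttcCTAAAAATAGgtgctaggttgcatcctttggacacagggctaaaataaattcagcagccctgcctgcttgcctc
Synpo2l, chr14:20668355-20668604, minus strand: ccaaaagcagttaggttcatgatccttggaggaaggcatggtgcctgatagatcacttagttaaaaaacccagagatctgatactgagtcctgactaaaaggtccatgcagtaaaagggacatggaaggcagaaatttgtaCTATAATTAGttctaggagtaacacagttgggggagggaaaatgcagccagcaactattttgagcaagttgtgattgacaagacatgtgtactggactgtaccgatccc
The Ankrd1 window held 2 MCAT matches, at positions -210 to -205 and -123 to -118 from the start. Xirp2 held a MEF2 match at -74 to -65 and Synpo2l one at -109 to -100. The other window of Synpo2l held no match to the stricter MEF2 form. It did hold a site of the usual MEF2 consensus, which was not counted. The MEF2 counts and shares below are for the stricter form only. Flnc held an MCAT match across its upstream start (-1 to 5), which is the same site as -104 to -99 of its other window, and Fhl1 a CArG match at -102 to -93. In all, 5 of the 8 genes had a match in 6 of their 12 windows, whereas 16.5% of all 32851 windows held at least 1. Taken singly, 14.7% of all windows held MCAT, 1.63% CArG and 0.557% MEF2. No match to the motifs as searched was found in the windows of Ankrd2, Csrp3 and Nrap. These matches describe letters in a window and no binding was measured.

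The deposited values are whole numbers that sum to between 999152 and 999382 in each library, a per-million scale on which read depth cannot be read. Mybpc3 was 1510, 1795 and 2039 in wild type, 133, 142 and 186 in the saline mutants and 1024, 1374 and 1332 in treated mutants, in the order of the labels. Xist was above 0 in wild-type replicate 1 (119), saline mutant replicate 3 (351) and treated replicate 1 (39). The Y-linked Ddx3y was at 0 in the first pair of these, at 38 in treated replicate 1 and between 70 and 97 in the other 6 libraries, so treated replicate 1 held transcripts of both kinds. Markers of cardiomyocytes, all 7 listed, summed to between 43261 and 53176 over the 9 libraries. Single markers within that sum moved in different directions. Tnnt2, Tnni3 and Pln were lower in saline mutants than in wild type without overlap, by -0.33, -0.50 and -0.41 on log2(value + 1). Actc1 was higher without overlap, by 0.32, and Myh6, Ryr2 and Myl2 overlapped. Of 9 skeletal muscle markers, Myh1, Myh2, Actn3, Pvalb and Myog had no row, and the other 4 summed to between 1 and 5 in every library. Myl4 alone of 4 atrial markers had a row, at 1 in each wild-type library, 3 to 5 in the saline mutants and 2 to 3 in treated mutants. Fibroblast markers (5 of 5 listed) summed to 959 to 1325 in wild type, 1509 to 2295 in the saline mutants and 1121 to 1391 in treated mutants, and smooth muscle markers (5 of 5 listed, Tagln at 0 in 8 libraries) to 327 to 483, 226 to 241 and 296 to 310. The fibroblast sums were therefore higher in saline mutants than in wild type, as were the genes below. In treated mutants the fibroblast sums overlapped wild type, whereas 9 of the 10 genes below did not. The part of fibroblasts in these values was not tested. The lower smooth muscle sums of the saline mutants came mostly from Acta2, at 257, 328 and 189 in wild type and 118, 118 and 117 in saline mutants. Myh11 and Smtn overlapped between these groups.

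All 10 genes were higher in saline mutants than in wild type, without overlap between the groups. Limma on log2(value + 1), with p-values adjusted over all genes tested, called all 10 higher at the 0.05 threshold, in a comparison in which 4.56% of the 13632 genes tested were called higher and 3.14% lower; 12.8% of genes were higher without overlap. Over all genes 622 were called higher and 428 lower, or 622 and 684 with upper-quartile scaling, and the total fell to 609, 640, 506 and 688 without wild-type replicate 1 or 3 or saline mutant replicate 2 or 3. The rule used this contrast, so nothing is read from that count. The median of the 10 differences was 1.80 on the log2 scale, or 1.40 without Ankrd2, beside a median of 0.07 over all genes tested.

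**Figure D1:**
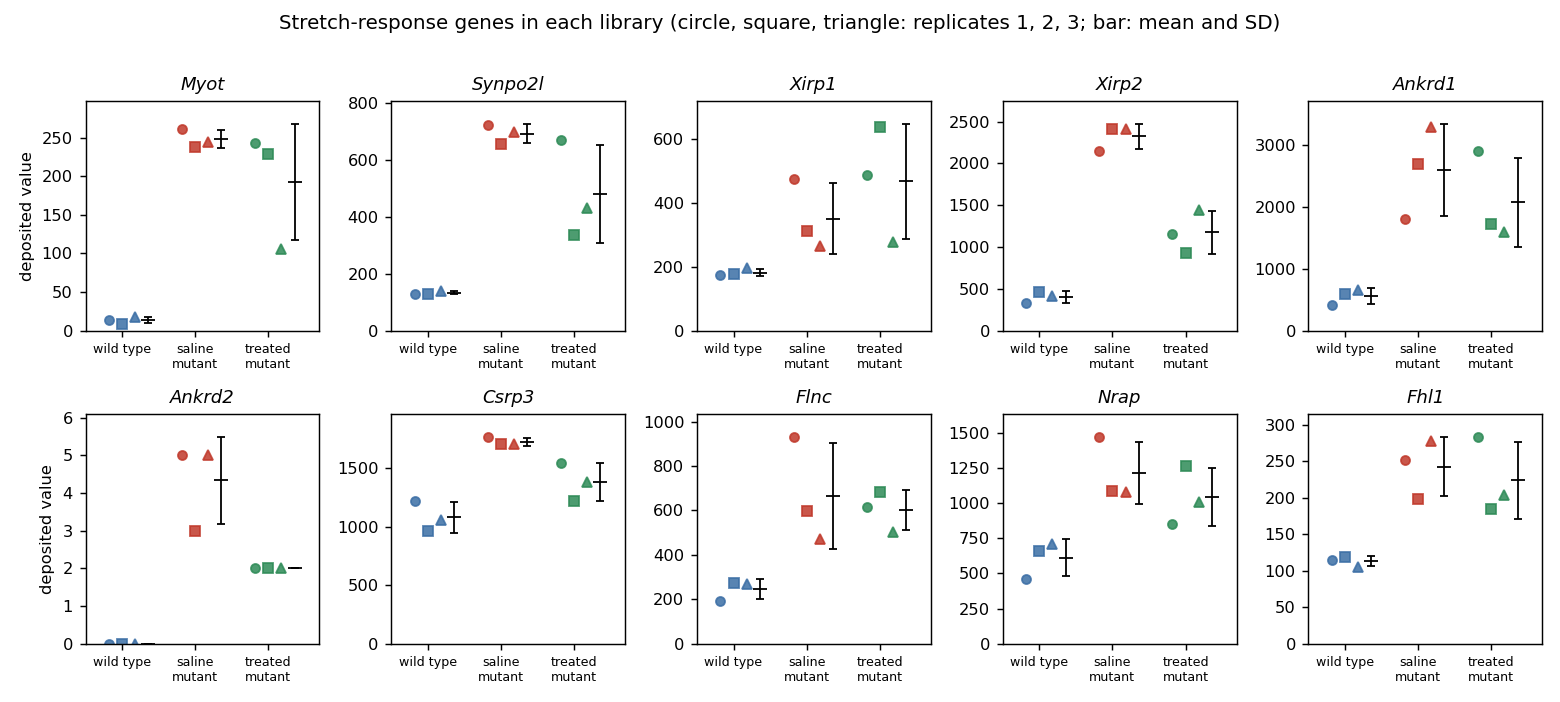
Deposited value (per-million scale, vertical axis from 0) of each gene in each library of the 3 groups, with the group mean and SD as a black bar. The saline mutants lie above wild type in all 10 panels, and the treated mutants range from Xirp1, where 2 of 3 libraries exceed every saline mutant, to Xirp2, where all 3 lie below.

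Among the structural proteins of the Z-disc, myotilin (Myot) cross-links actin filaments and binds alpha-actinin and filamin C. Myot was 14, 9 and 18 in wild type, 261, 238 and 245 in the saline mutants and 243, 229 and 106 in treated mutants. Treated replicates 1 and 2 fell within the saline mutants' range or just below it, and replicate 3 was far lower, yet even that library (106) was well above the highest wild-type value (18). Myot rose by 4.13 (SE 0.207) on the log2 scale in saline mutants, 18.1-fold on the mean of the deposited values. In treated mutants the mean was 193 ± 75.4 (SD, n = 3), a difference of -0.45 (SE 0.278) from saline mutants and of 3.68 (SE 0.353) from wild type.

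Synpo2l encodes a synaptopodin-like protein of the Z-disc, also called CHAP, that binds alpha-actinin. Its values were 129, 129 and 138 in wild type, 722, 654 and 699 in the saline mutants and 670, 337 and 430 in treated mutants. The wild-type and saline mutant groups were each tight, while the treated libraries spread from 337 to 670 and overlapped the saline mutants through replicate 1. The rise in saline mutants was 2.38 (SE 0.0917), or 5.24-fold. The treated mean stood -0.59 (SE 0.220) from saline mutants and 1.79 (SE 0.227) from wild type. Synpo2l lies at chr14:20658946-20668354 on GRCm38.

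Flnc encodes filamin C, the muscle filamin that links Z-discs and the sarcolemma to actin. It was 194, 274 and 267 in wild type, 931, 596 and 471 in the saline mutants and 617, 684 and 505 in treated mutants. Among the saline mutants replicate 1 stood well above the other two, and the treated libraries all lay inside the saline mutants' range. The difference was 1.40 (SE 0.240) between saline mutants and wild type, -0.10 (SE 0.234) between treated and saline mutants and 1.30 (SE 0.169) between treated mutants and wild type. Without wild-type replicate 1 the call in saline mutants was lost, at a difference of 1.24, as it was with limma's own variance step. The difference between treated and saline mutants changed sign without treated replicate 3 (0.02) or saline mutant replicate 1 (0.17). The gene lies at chr6:29433256-29461883.

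The Xin-repeat proteins Xirp1 and Xirp2 bind actin filaments and sit at the intercalated disc. They took different courses after treatment. Xirp2 (chr2:67446002-67526614) was 325, 461 and 411 in wild type, 2146, 2407 and 2411 in the saline mutants and 1155, 932 and 1442 in treated mutants, so its 3 groups did not overlap. Its saline mutant mean was 5.82-fold the wild-type mean, a rise of 2.55 (SE 0.140). Treated libraries averaged 0.507 times the saline mutant mean, a difference of -1.0 (SE 0.164), and stood 1.55 (SE 0.189) from wild type. An antisense gene, Gm13601, shares exon bases with Xirp2 and has no row in the tables, and whether reads were counted by strand is not given in the sources used here.

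Xirp1 (chr9:120013755-120023598) was 174, 176 and 195 in wild type, 475, 311 and 264 in the saline mutants and 487, 637 and 277 in treated mutants. Here treated replicates 1 and 2 were above every saline mutant and replicate 3 fell among them. It was the only gene of the 10 with a higher mean in treated than in saline mutants, 467 ± 181 against 350 ± 111 (SD, n = 3 each). The differences were 0.90 (SE 0.194) for saline mutants against wild type, 0.38 (SE 0.310) for treated against saline mutants and 1.28 (SE 0.272) for treated mutants against wild type. The call against wild type was the least steady of the 10, being lost without wild-type replicate 1, 2 or 3 or saline mutant replicate 2, with limma's own variance step and with all 9 libraries in 1 fit (differences of 0.66 to 1.08 over all 17 alternative fits).

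Ankrd1 and Ankrd2 encode muscle ankyrin repeat proteins, which bind titin and are induced by load in heart and skeletal muscle respectively. Ankrd1 was 411, 591 and 663 in wild type, 1811, 2695 and 3291 in the saline mutants and 2897, 1727 and 1594 in treated mutants. The saline and treated mutants overlapped across most of their ranges, and both groups were clear of wild type. Ankrd1 rose by 2.21 (SE 0.241) in saline mutants, 4.68-fold. For treated mutants the difference was -0.34 (SE 0.274) from saline mutants and 1.87 (SE 0.262) from wild type.

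Ankrd2 was near the limit of the rounded scale. It was listed at 0 in every wild-type library, at 5, 3 and 5 in saline mutants and at 2 in each treated mutant, so no fold against wild type is given. Treated mutants lay below saline mutants without overlap, by -0.81 (SE 0.213) on log2(value + 1). With values of 2 to 5, 1 unit of rounding is a large part of that difference. Ankrd1 (chr19:36111961-36120099), Ankrd2 (chr19:42036000-42045110) and Nrap (chr19:56320035-56390037) share a chromosome but are not neighbours.

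The LIM-domain proteins were Csrp3, the muscle LIM protein of the Z-disc and nucleus, and Fhl1, which binds the spring region of titin. Csrp3 (chr7:48830398-48848033) was 1224, 964 and 1054 in wild type, 1768, 1704 and 1704 in the saline mutants and 1543, 1220 and 1382 in treated mutants. The treated libraries all lay below the saline mutants, and 1 of them fell within the wild-type range. With 0.68 (SE 0.116), Csrp3 had the smallest rise of the 10 in saline mutants, and this call was lost without saline mutant replicate 2 and with median-of-ratios or upper-quartile scaling (differences of 0.69, 0.61 and 0.59). The difference was -0.33 (SE 0.120) between treated and saline mutants and 0.35 (SE 0.131) between treated mutants and wild type.

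Fhl1 (chrX:56731787-56793346) was 115, 119 and 105 in wild type, 252, 198 and 277 in the saline mutants and 283, 184 and 204 in treated mutants. The mutant groups overlapped almost fully. The differences were 1.08 (SE 0.134), -0.13 (SE 0.184) and 0.96 (SE 0.163) in the order used above. Fhl1 is X-linked, and in the mutant groups its highest values, 277 and 283, were in the libraries with Xist. In wild type the library with Xist (115) lay between the others (119 and 105). Without the Xist libraries the differences were 0.99, -0.20 and 0.79. The second of them was 0.0018 without treated replicate 2.

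Nrap encodes the nebulin-related anchoring protein, which joins actin filaments to the intercalated disc and is used in myofibril assembly. It was 463, 660 and 710 in wild type, 1470, 1089 and 1080 in the saline mutants and 851, 1265 and 1011 in treated mutants. Treated replicate 2 lay inside the saline mutants' range and the others below it. The differences were 1.0 (SE 0.186), -0.22 (SE 0.179) and 0.77 (SE 0.201), and the call in saline mutants was lost with limma's own variance step. Nrap shares exon bases with Habp2, which was 1 to 5 in every library, and with the antisense gene Gm17197, which has no row.

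**Figure D2:**
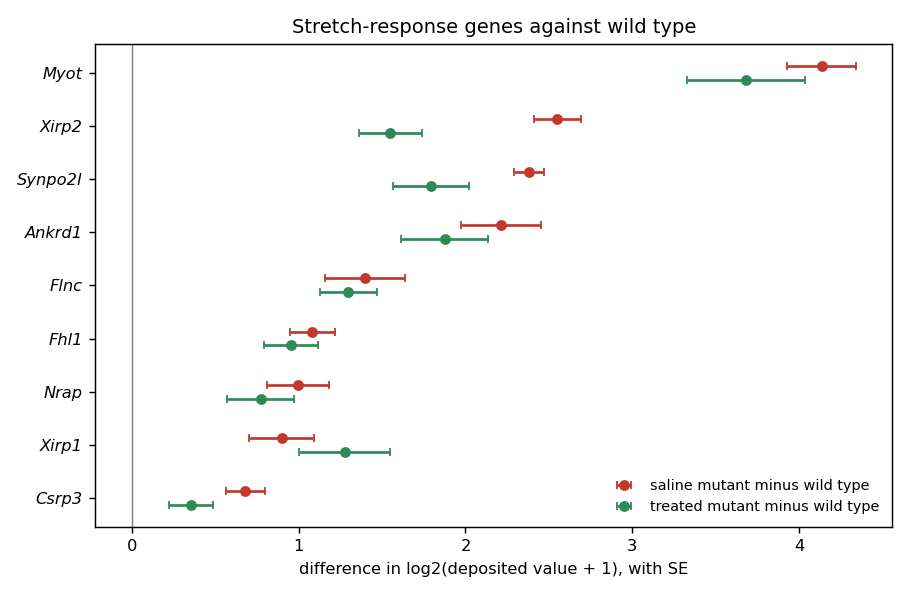
Difference from wild type in log2(deposited value + 1), with its SE, for saline mutants (red) and treated mutants (green), in the order of the saline mutant difference. Ankrd2, listed at 0 in wild type, is left out; Myot lies at 4.13 and 3.68, and Xirp1 is the only gene whose treated mean lies farther from wild type than its saline mean.

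None of the 10 genes was called between treated and saline mutants. In that comparison 0.00733% of the 13636 genes tested were called lower and 0.00733% higher, which is 1 gene each way. At an unadjusted p under 0.05 limma gave 1130 genes in all and 4 of the 10: Synpo2l, Xirp2, Ankrd2 and Csrp3. Xirp2, Ankrd2 and Csrp3 were lower without overlap, beside 4.34% of all genes tested. Here too the rule used the contrast, and these counts are descriptions. The median difference of the 10 was -0.33, with or without Ankrd2, and that of all genes -0.02. Since treated mutants are compared both with saline mutants and with wild type, and saline mutants with wild type, the 3 comparisons share their libraries and are set side by side only.

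Each treated library was placed between the saline mutant mean (0) and the wild-type mean (1) on the log2 scale. Mybpc3 lay at 0.777, 0.897 and 0.884 in treated replicates 1, 2 and 3. Csrp3 came nearest to wild type of the 10, at 0.236, 0.733 and 0.469, followed by Xirp2 at 0.394, 0.515 and 0.268. Myot was at 0.007, 0.027 and 0.295, which is at the saline mutant mean in the first pair of libraries. Xirp1 was at -0.579, -1.01 and 0.324. Over the 10 genes the median position was 0.0277, 0.292 and 0.291, a mean of 0.204 ± 0.152 (SD, n = 3). Every value lay below that of Mybpc3 in the same library. Myot, Synpo2l, Xirp2 and Ankrd1 were chosen partly for returning little. Low positions were thus partly set by the rule, and nothing is read from them or from their distance to Mybpc3. Treated replicate 1 had the lowest position of the 3 for Myot, Synpo2l, Ankrd1, Csrp3 and Fhl1, and the highest for Nrap.

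**Figure D3:**
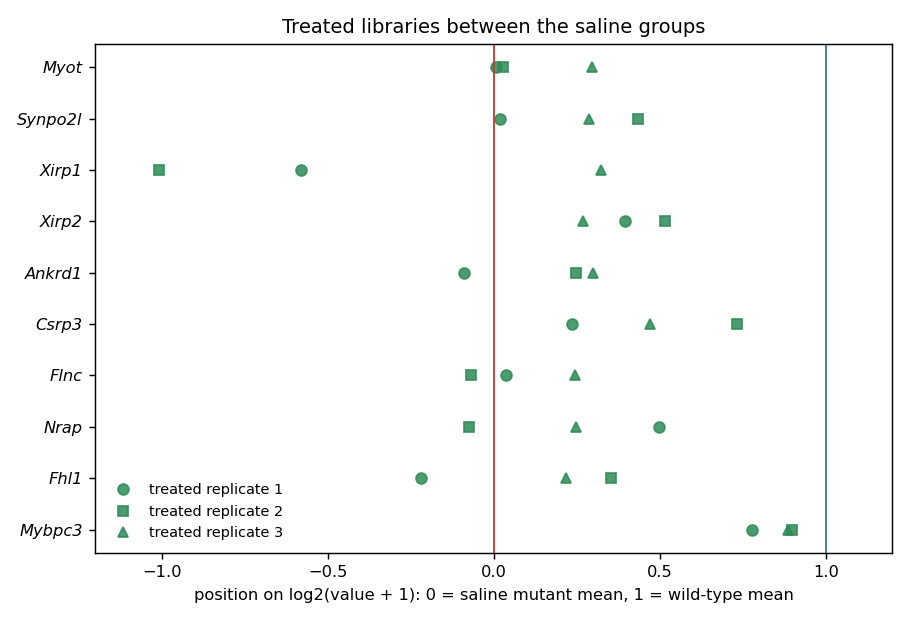
Position of each treated library between the saline mutant mean (red line, 0) and the wild-type mean (blue line, 1) on log2(value + 1), with Mybpc3 at the bottom for comparison and Ankrd2 left out because it is listed at 0 in wild type. Mybpc3 lies between 0.777 and 0.897, and no library exceeds 0.733 for any other gene shown.

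Against wild type, the 10 genes were all higher in treated mutants on average and 9 did not overlap; the exception was Csrp3. Limma called 7 higher, leaving out Xirp1, Csrp3 and Nrap, where 0.863% of the 13554 genes tested were called higher and 0.125% lower and 9.13% were higher without overlap. Of all genes 117 were called higher and 17 lower, or 116 and 46 with upper-quartile scaling. The rule used the treated values too, so nothing is read from the count of 7. The median difference was 1.42, or 1.30 without Ankrd2, against 0.01 for all genes. These calls depended on which library was left out. Leaving out wild-type replicate 1 or 2 left 0 of the 10 called and replicate 3 left 1, while 2, 3 and 6 were called without treated replicates 1, 2 and 3. Over all genes the corresponding counts were 1, 3 and 12 without a wild-type replicate and 24, 22 and 133 without a treated one, in place of 134. The differences themselves moved far less: that of Myot ranged from 3.35 to 4.06 and that of Synpo2l from 1.51 to 2.02 over 17 alternative fits.

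In the authors' deposited tables of selected genes, all 10 are among the 689 listed for the genotype comparison of the saline groups. For treated against saline mutant the authors' deposited table lists 137 genes, of which Xirp2 is 1, with a log2 fold change of -0.94. The authors' deposited table for treated mutant against wild type lists 317 genes and holds 8 of the 10, without Ankrd2 and Csrp3. The full tables hold 15589, 15580 and 15418 genes in the same order. These selections come from the same libraries and the contrasts that the rule used, so nothing is read from the counts.

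Likeness of pattern was measured as the root mean square difference in log2(value + 1), each gene relative to its wild-type mean, over the 9 libraries and 4981 genes averaging 30 or more. The genes nearest to Synpo2l were Casq1, the calsequestrin of fast skeletal muscle (0.259), then Ankrd1 (0.313) and Xirp2 (0.321), which are themselves among the 10. Xirp2 was nearest to Mybpc2, the fast skeletal isoform of myosin-binding protein C (0.246), to Fgl2 (0.279) and to Synpo2l. Mybpc2 was 23, 26 and 32 in wild type, 167, 165 and 156 in the saline mutants and 84, 100 and 100 in treated mutants. Ankrd1 was nearest to Ccn2 (0.280) and Synpo2l (0.313). Myot had no close match: Aqp8 (0.568), Cpxm2 (0.890) and Thbs4 (0.937) were the nearest. Aqp8 was 2, 1 and 3, then 78, 75 and 62, then 33, 22 and 38 in the 3 groups. These distances are descriptions over 9 libraries that all the genes share.

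Related genes were then examined in 4 lists, which the rule for the 10 did not use but which were drawn up with earlier results known. Family relatives of the 10 (among them the myotilin relatives Mypn and Palld, the synaptopodins, Ankrd23, Csrp1 and Csrp2, Flna, the nebulin family and Fhl2 and Fhl3) came to 14 genes, all tested. In saline mutants 3 were called higher and 1 lower, with a median difference of 0.11. This and the list counts that follow stand beside 4.56% of all genes tested called higher, 3.14% lower and an all-gene median of 0.07.

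Fhl2, the main FHL protein of the heart, fell while Fhl1 rose. It was 1787, 1728 and 1481 in wild type, 873, 743 and 759 in the saline mutants and 1452, 1093 and 1204 in treated mutants, and the 3 groups did not overlap. The difference in saline mutants was -1.07 (SE 0.119, limma adjusted p 0.00116), called in all 17 alternative fits. With treatment it was 0.65 (SE 0.135, limma adjusted p 0.203).

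Neb, which encodes the giant actin-binding protein nebulin of skeletal muscle and is a relative of Nrap, was 2, 5 and 4 in wild type, 32, 24 and 28 in the saline mutants and 16, 16 and 14 in treated mutants. It rose by 2.68 (SE 0.252, limma adjusted p 0.000597) in saline mutants, stood -0.82 (SE 0.144, limma adjusted p 0.158) from them after treatment, and was called higher than wild type in treated mutants (1.86, SE 0.250, limma adjusted p 0.0281). The cardiac relative Nebl was not called, with a difference of -0.12 (SE 0.122).

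The third muscle ankyrin repeat gene, Ankrd23, was 3, 5 and 5, then 14, 13 and 13, then 16, 11 and 9, a rise of 1.45 (SE 0.190, limma adjusted p 0.00246) in saline mutants. Synpo rose by 0.58 (SE 0.0942, limma adjusted p 0.00716). The other 10 relatives were not called, and the highest of them, Synpo2, differed by 0.43 (SE 0.118). Flna, a widely expressed filamin, differed by -0.02 (SE 0.216), beside 1.40 for Flnc.

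**Figure D4:**
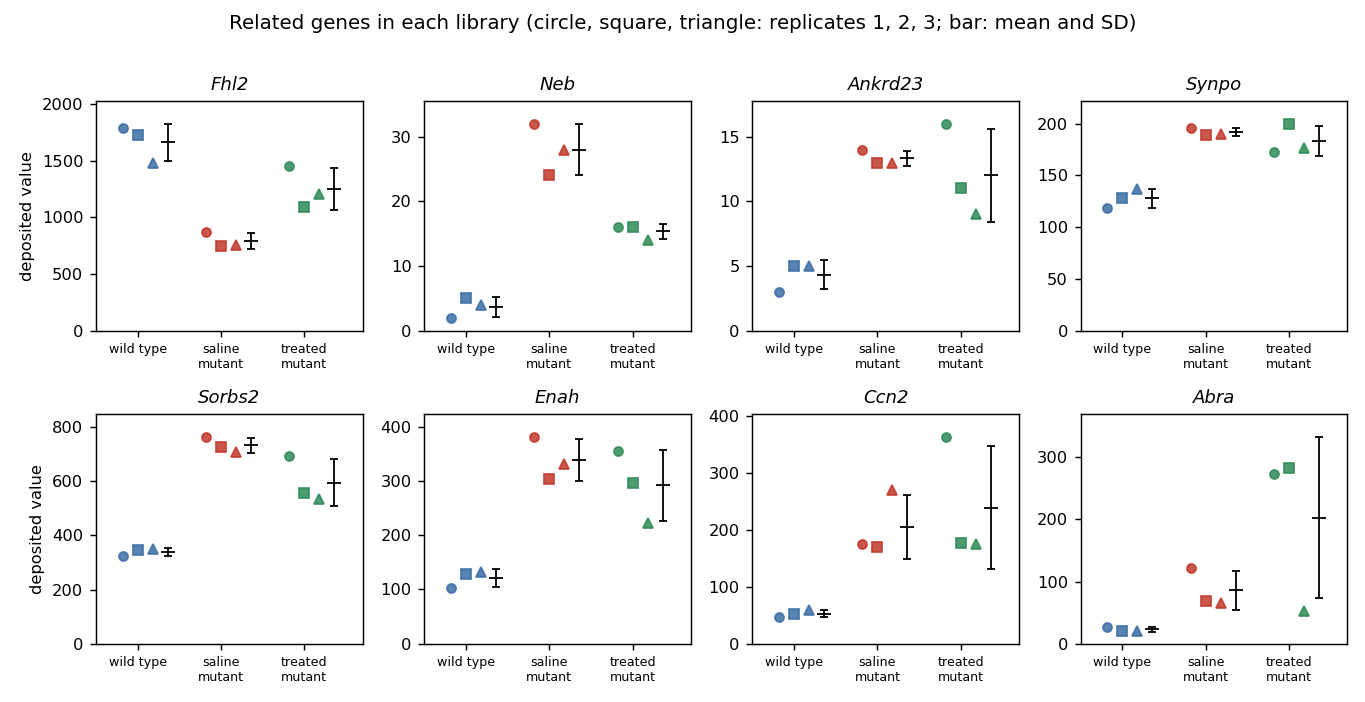
Deposited value (per-million scale, from 0) of 8 called list genes in each library, with the group mean and SD as a black bar. Fhl2 is lower in saline mutants with treated mutants between the groups, and Abra is highest in treated replicates 1 and 2, at 273 and 282.

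Of 22 other Z-disc genes, 21 were tested (Myoz1 was 0 or 1 throughout), and 6 were called higher in saline mutants and none lower, with a median of 0.33. The largest rise was in Pdlim3, the actinin-associated LIM protein, at 1.20 (SE 0.165, limma adjusted p 0.00317). Sorbs2, a Z-disc adaptor of the vinexin family, rose from 324, 346 and 351 to 764, 726 and 708, by 1.10 (SE 0.0919, limma adjusted p 0.000319), and stood at 693, 558 and 535 in treated mutants, 0.80 (SE 0.119, limma adjusted p 0.0331) above wild type. Pdlim1 rose by 0.80 and the LIM protein gene Lmcd1 by 0.78 (limma adjusted p 0.00183 and 0.00479), both in all 17 alternative fits. Des, the intermediate filament desmin, rose by 0.56 (limma adjusted p 0.0138), a call lost without wild-type replicate 2 or saline mutant replicate 2, with either other scaling and with the replicate block. Pdlim5 rose by 0.42 (limma adjusted p 0.0309) but was not called without any 1 of the 6 libraries or in 5 of the other 11 alternative fits. Core components did not reach the threshold: the difference was 0.36 (SE 0.121) for Actn2, the alpha-actinin of the Z-disc, 0.31 (SE 0.104) for Ldb3 and 0.13 (SE 0.174) for Tcap. Actn2 and Ldb3 were higher in saline mutants without overlap, and Tcap overlapped. Of the 21 tested genes 14 were higher without overlap, beside 12.8% of all genes tested.

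Of 18 adaptor genes of the intercalated disc and costamere, 17 were tested (Ilk had no row), and 2 were called higher and none lower in saline mutants, with a median of 0.09, close to the 0.07 of all genes. Enah, an actin regulator of the Ena/VASP family, was 103, 129 and 132 in wild type, 381, 304 and 332 in the saline mutants and 355, 297 and 223 in treated mutants. It rose by 1.48 (SE 0.131, limma adjusted p 0.000460) and was also called in treated mutants against wild type (1.24, SE 0.183, limma adjusted p 0.0326). The zyxin gene Zyx rose by 0.61 (limma adjusted p 0.0321), and this call was lost without wild-type replicate 1 or 3, saline mutant replicate 2 or 3 or the Xist libraries, with limma's own variance step and with all 9 libraries in 1 fit. Vcl, Ctnnb1 and Cdh2, which encode vinculin, beta-catenin and N-cadherin, differed by 0.40 (SE 0.244), 0.09 and -0.05 and were not called. Ctnna1 differed by -0.29 (SE 0.110) and was not called either. It was the 1 gene of the list lower without overlap, beside 1197 of 13632 genes tested. Higher without overlap were 2 of the list, beside 12.8% of all genes.

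Of 17 genes of mechanical signalling (the YAP and TEAD pathway, SRF and its coactivators, and immediate targets), 3 were called higher and none lower in saline mutants, with a median of 0.29. Ccn2, a secreted matricellular target of YAP, was 47, 52 and 59 in wild type, 176, 171 and 271 in the saline mutants and 364, 178 and 175 in treated mutants. It rose by 1.92 (SE 0.181, limma adjusted p 0.000602) and stood 2.08 (SE 0.275, limma adjusted p 0.0277) above wild type after treatment. Abra, which encodes the actin-binding protein STARS, rose by 1.80 (SE 0.228, limma adjusted p 0.00205), from 27, 21 and 21 to 122, 69 and 66, a call lost with all 9 libraries in 1 fit. Ccn1 rose by 0.83 (SE 0.156, limma adjusted p 0.0136), a call lost when wild-type replicate 1, replicate 2 of the saline mutants or the Xist libraries were left out, with limma's own variance step and with all 9 libraries in 1 fit. The transcription factors and cofactors themselves, Yap1, Wwtr1, Tead1, Tead4, Vgll4, Srf, Mrtfa, Mrtfb and Myocd, differed by between -0.01 (Vgll4) and 0.40 (Mrtfb) and were not called. Tead1 and Mrtfb were higher without overlap. In the whole list 5 genes were, beside 12.8% of all genes tested. Egr1 differed by 0.59 (SE 0.306), overlapped and was not called.

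Between treated and saline mutants no gene of the 4 lists was called by limma. At an unadjusted p under 0.05 there were 2 of 14 family relatives (Neb and Fhl2), 5 of 21 other Z-disc genes, 1 of 17 adaptor genes and 0 of 17 mechanical-signalling genes, beside 1130 of 13636 genes in all, and the list medians were -0.06, -0.02, 0.03 and 0.04. The 5 Z-disc genes (Tcap, Pdlim1, Pdlim3, Lmcd1 and Sorbs2) were lower in treated mutants without overlap, beside 4.34% of all genes tested. Their differences were -0.31, -0.34, -0.61, -0.51 and -0.31, and no gene of that list was higher without overlap. The adaptor gene, Ctnna1, was higher without overlap by 0.25, as were 747 of all genes. Against wild type, 0.863% of all genes tested were called higher in treated mutants and 0.125% lower. In each list 1 gene was called higher, namely Neb, Sorbs2, Enah and Ccn2. Each of these 4 calls was lost without any 1 wild-type replicate and without treated replicate 2, and those of Neb, Sorbs2 and Enah also without treated replicate 1, with adjusted p-values of up to 0.0921, 0.132, 0.130 and 0.10 over the alternatives.

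**Figure D5:**
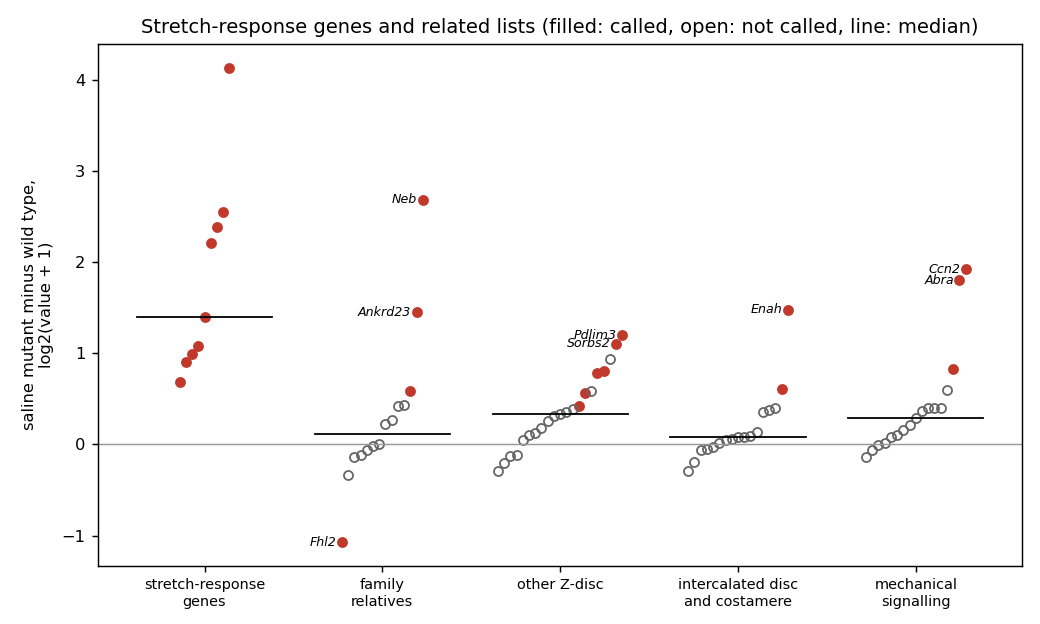
Difference between saline mutants and wild type in log2(value + 1) for the stretch-response genes (9, without Ankrd2) and the tested genes of 4 related lists, each point 1 gene, filled where limma called it, with the list median as a line. The list medians are 0.11, 0.33, 0.09 and 0.29, and the labelled genes are those called with a difference over 1 in size, from Fhl2 at -1.07 to Neb at 2.68.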

How the data were processed

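PolyA RNA of adult mouse heart was sequenced in 9 libraries. The authors deposited a table per pair of groups; the submitters' processing notes name HISAT2, HTSeq, DESeq2 and mm10, without roles or versions. The deposited values per library are whole numbers with nearly equal sums, treated as a score on a rounded per-million scale; no header names the unit, and depth is unknown. The deposited log2 fold changes are the authors' own.

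Pairs of groups were fitted with limma 3.58.1 (R 4.3.3) on log2(value + 1), for genes averaging 1 or more, with residual variances floored at the variance of rounding, prior degrees of freedom from genes of mean value at least 30, and Benjamini-Hochberg adjustment over all genes. The procedure was tested on simulated data. A fold on this scale understates changes of low genes. P-values measure only the spread between these libraries.

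Members, lists and tests were chosen with earlier results of these data known. The text names the 10 members, all family relatives, up to 5 called genes with the smallest p in each other list, list genes called elsewhere, the 3 genes most like Myot, Synpo2l, Xirp2 and Ankrd1, and genes that check the libraries; other list genes named were chosen after their values were seen. Some genes that this rule takes are not reported here. Gene positions are from GENCODE M21 (GRCm38).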

Additional observations from a re-analysis of the deposited data

How the results depend on the processing

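Over 17 alternative fits per comparison, no called difference of a single member changed direction. Between treated and saline mutants, where none was called, Flnc changed sign without treated replicate 3 (0.02) or saline mutant replicate 1 (0.17) and Fhl1 without treated replicate 2 (0.0018). In all, 164 of 169, 165 of 169 and 159 of 164 values (saline mutant against wild type, treated against saline mutant, treated mutant against wild type) moved by less than the spread between replicates. Part of this was fixed in advance. Another variance step or prior, another filter, all 9 libraries in 1 fit and the replicate block leave the difference of a gene that is kept as it was. Only the other pseudocounts, the scalings and the fits without some libraries could move it. Leaving out a single library could move it only by less than the spread used here, whatever the values. These counts were thus largely fixed, and nothing is read from them.

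In saline mutants against wild type, the median difference of the 10 genes was 1.22 with a pseudocount of 5, 1.40 with a filter at a mean value of 10 (which drops Ankrd2), 1.64 without the Xist libraries and 1.62 to 1.91 with 1 library left out; 8 to 10 of them were called with 1 library left out and 7 with limma's own variance step (not Xirp1, Flnc and Nrap). Over all genes 1050 were called, 506 to 1029 with 1 library left out and 556 without the Xist libraries. Of these 622 were higher and 428 lower; the split was 686 and 595 (53.6% higher) with median-of-ratios scaling and 622 and 684 (47.6% higher) with upper-quartile scaling. Of the adaptor list 1 was called with limma's own variance step, with all 9 libraries in 1 fit and without the Xist libraries, and 1 to 2 with 1 library left out; of the mechanical-signalling list 1 was called with all 9 libraries in 1 fit.

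In treated against saline mutants the 2 genes called became 7 (pseudocount 5), 6 (filter at 10), 10 (either scaling), 32 (limma's own variance step), 14 (prior from all genes), 13 (all 9 libraries) and 2 to 8 (1 library left out).

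In treated mutants against wild type the 134 genes became 86 (no filter), 77 (limma's own variance step, 39 higher and 38 lower), 243 (prior from all genes), 248 (all 9 libraries), 9 (without the Xist libraries) and 1 to 133 (1 library left out). The split of 117 higher and 17 lower became 116 and 46 with upper-quartile scaling (71.6% higher). The 7 stretch-response genes called became 1 with limma's own variance step, 2 without the Xist libraries and 0 to 6 with 1 library left out. Their median difference was 1.27 (pseudocount 5), 1.30 (filter at 10), 1.28 and 1.22 (median-of-ratios and upper-quartile scaling), 1.29 (without the Xist libraries) and 1.20 to 1.49 (1 library left out). The single call in each list became 0 with limma's own variance step in all 4 lists, 0 without the Xist libraries in all but the mechanical-signalling list, 0 for family relatives with the filter at 10 and 0 for other Z-disc genes with upper-quartile scaling. It became 3 for family relatives and 2 for mechanical-signalling genes with the prior from all genes or all 9 libraries in 1 fit. With 1 library left out it was 0 to 1 for family relatives and adaptors, 0 to 2 for other Z-disc genes and 0 to 3 for mechanical signalling.

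Replicate numbers did not pair the libraries: same-numbered libraries of different groups had correlations of -0.417 to 0.621, with 3 of 9 over 0.1. With the replicate block 819, 30 and 35 genes were called in the 3 comparisons, with 10, 1 (Xirp2) and 2 of the stretch-response genes, and 0 genes of each of the 4 lists in treated mutants against wild type. The cause of these shifts was not tested. Depth cannot be read from the deposited values, so differences in genes with values under 10, such as Ankrd2, Neb in wild type and Ankrd23, are limited by rounding.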

Other observations

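Bag3, Abra and Ccn1 are 3 genes of the lists whose treated libraries stood in the same order as in Xirp1, with replicate 2 highest and replicate 3 lowest. They were chosen after their values were seen. The order was not particular to them. Flnc and further list genes had it too, among them Des (2811, 3044 and 2236 in treated mutants) and Yap1 (129, 134 and 99). Bag3, the co-chaperone that clears damaged filamin at the Z-disc, was 202, 187 and 188 in wild type, 234, 217 and 205 in the saline mutants and 371, 383 and 204 in treated mutants. Abra was 273, 282 and 53 in treated mutants, against 122, 69 and 66 in saline mutants, and Ccn1 was 106, 126 and 49 against 49, 68 and 72. In each of the 3 genes treated replicates 1 and 2 were above every saline mutant and replicate 3 was at or below the lowest of them. Des and Yap1 showed the same. In Xirp1, by contrast, replicate 3 (277) was above the lowest saline mutant (264). Neither Bag3 nor Abra nor Ccn1 was called by limma between treated and saline mutants. There the difference was 0.95 (SE 0.582, limma adjusted p 0.695) for Abra, 0.49 (SE 0.224, adjusted p 0.610) for Bag3 and 0.48 (SE 0.320, adjusted p 0.731) for Ccn1.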
